A study of Mus musculus with 18 samples.

Results

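The transcripts of 9 genes of the cytotoxic granule program were followed in splenic CD4 T cells of naive and tolerized mice. They were picked by gene symbol from the 37991 Ensembl genes of the count files. Gzma, Gzmb, Gzmc and Gzmk encode granzymes, Prf1 encodes perforin, Nkg7 and Ctsw encode further granule proteins, Serpinb9 encodes an inhibitor of granzyme B, and Klrg1 encodes a surface receptor. All 9 passed the filter on low counts, a mean of 3 or more normalized counts in any group, and were tested among 17240 genes. A normalized count is the number of reads assigned to a gene after scaling each library by its effective size (TMM scaling).

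RNA-seq was performed on 18 libraries in 6 groups of 3 biological replicates. All cells came from Tg4-H2u mice, which carry a transgenic T cell receptor for the N-terminal peptide of myelin basic protein, so that most of their CD4 T cells share 1 specificity. Male and female mice aged 6 to 12 weeks were used, and CD4 T cells were enriched magnetically from the spleen, which leaves some cells of other types. Tolerized mice (T) had been injected subcutaneously every 3 to 4 days with rising amounts of the 4Y peptide, 7 doses in all. The 4Y peptide is an analog of that N-terminal peptide and binds MHC molecules with higher affinity. Control mice (N, naive) had been injected with PBS on the same schedule. N0 and T0 mice were given a last injection of PBS, and NAg and TAg mice a last injection of 4Y peptide antigen (Ag), 2 h before the cells were taken. NPI and TPI cells were kept in culture medium for 2 h with PMA, a phorbol ester, and the calcium ionophore A23187 (together PI), which act downstream of the T cell receptor. The PI cells therefore differed from N0 and T0 cells by culture as well as by stimulus, and both cannot be told apart. The comparisons address the cytotoxic transcripts of tolerized cells at rest, after Ag and after PI, and the response of naive and tolerized cells to each stimulus.

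As background, cytotoxic lymphocytes store granzymes and perforin in secretory granules and release them onto a target cell, where perforin opens the membrane and the granzymes cleave proteins that keep the cell alive. The program is best known from CD8 T cells and NK cells, but CD4 T cells that have met antigen repeatedly can express parts of it. T-box factors such as T-bet and Eomes, RUNX factors, and the AP-1 and NFAT factors that follow receptor signals are known regulators of these genes.

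To show the sequence near the start of the genes whose transcripts changed most, the 250 bases upstream of the RefSeq start sites of Gzmb, Nkg7 and Serpinb9 are printed 5′ to 3′ on the strand of the gene, from RefSeq promoters of build GRCm38.p6. Capitals mark matches, on either strand, to a T-box core (GGTGTGA), a RUNX core (TGTGGT) or an AP-1 core (TGANTCA). Gzmb has a pair of RUNX cores and 1 AP-1 core upstream, and Nkg7 has 1 RUNX core and a T-box core close to the start site. Serpinb9 has none of the 3 in its upstream run.
Gzmb (chr14:56262335-56262584, minus strand): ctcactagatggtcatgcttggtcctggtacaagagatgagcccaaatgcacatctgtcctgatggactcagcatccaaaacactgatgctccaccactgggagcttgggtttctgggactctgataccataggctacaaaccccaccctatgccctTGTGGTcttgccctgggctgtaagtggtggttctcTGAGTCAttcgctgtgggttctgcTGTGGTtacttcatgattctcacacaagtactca
Nkg7 (chr7:43436888-43437137, plus strand): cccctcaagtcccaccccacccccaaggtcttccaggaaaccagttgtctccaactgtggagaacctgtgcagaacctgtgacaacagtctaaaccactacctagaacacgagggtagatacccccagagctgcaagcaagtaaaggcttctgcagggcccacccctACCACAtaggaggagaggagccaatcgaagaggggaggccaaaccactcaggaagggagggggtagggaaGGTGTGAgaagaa
Serpinb9 (chr13:33004291-33004540, plus strand): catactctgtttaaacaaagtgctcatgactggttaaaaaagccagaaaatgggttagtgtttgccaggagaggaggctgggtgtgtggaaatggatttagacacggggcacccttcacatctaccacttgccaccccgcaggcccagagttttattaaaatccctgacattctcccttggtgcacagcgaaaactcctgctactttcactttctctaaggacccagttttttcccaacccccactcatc

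Promoters of 7 of the 9 genes were matched by symbol in the RefSeq table, not those of Ctsw and Klrg1. In the full windows, which run from 250 bases before to 50 after the start, a RUNX core was present in 6 of the 7, against 16.8% of 32851 mouse promoters of the same length. The exception was Gzmk. The T-box core was present in 2 (Gzmk and Nkg7), against 3.98% of all promoters, and the AP-1 core in 1 (Gzmb), against 7.81%. The short NFAT core GGAAA, which is not marked above, was present in 3 (Gzma, Nkg7 and Serpinb9), against 61.3%. Matches to different cores did not overlap each other in these windows. A match describes the letters and is not evidence of binding.

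The reads were counted on build mm9, in which Gzmb (chr14:56877693-56881097) and Gzmc (chr14:56850238-56853493) lie on the minus strand within the same granzyme cluster. Gzma (chr13:113884033-113891187) and Gzmk (chr13:113961816-114016116) lie beside each other on the minus strand of chromosome 13, and Serpinb9 (chr13:33095119-33109826) on its plus strand. Prf1 is at chr10:60760584-60767011 on the plus strand, Nkg7 at chr7:50692443-50693616 on the plus strand, Ctsw at chr19:5465240-5468498 on the minus strand and Klrg1 at chr6:122220614-122232900 on the minus strand. Gzmk contains the gene Esm1 on the opposite strand, without shared exon bases. Of the 50-base windows in the transcripts of Gzmc, 3.95% also occur in Gzme, Gzmg or Gzmd, and of those of Serpinb9, 0.378% occur in Serpinb9b, so reads from such windows could be shared. The other members shared no such window with another gene.

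The libraries held 10758571 to 24119489 counted reads, with the deepest in the PI groups. Markers of CD4 T cells were abundant in every library, with a sum of 1100 to 4170 CPM (reads scaled to a common library total) over 7 genes, and both CD8 genes together reached 3.75 to 19.0 CPM. The 11 markers of NK cells, which express most of the 9 genes themselves, summed to 71.9 to 188.6 CPM, and none was at 0 in a whole group. The 10 neutrophil markers summed to 5.59 to 13.7 CPM in N0 and 133 to 234 CPM in T0, and all 10 were called higher in both T0:N0 and TAg:NAg. Reads of 4 Y-linked genes exceeded 1000 in all PI libraries, in 2 T0 libraries and in 1 TAg library, and in no N0 or NAg library. NPI:N0 therefore compares libraries that also differ by sex. T0:N0, TAg:NAg, TAg:T0 and TPI:T0 compare groups with unequal shares of such libraries. Only T0 and TAg hold libraries of both sexes, so fits with sex as covariate rest on these groups for its effect.

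**Figure D1:**
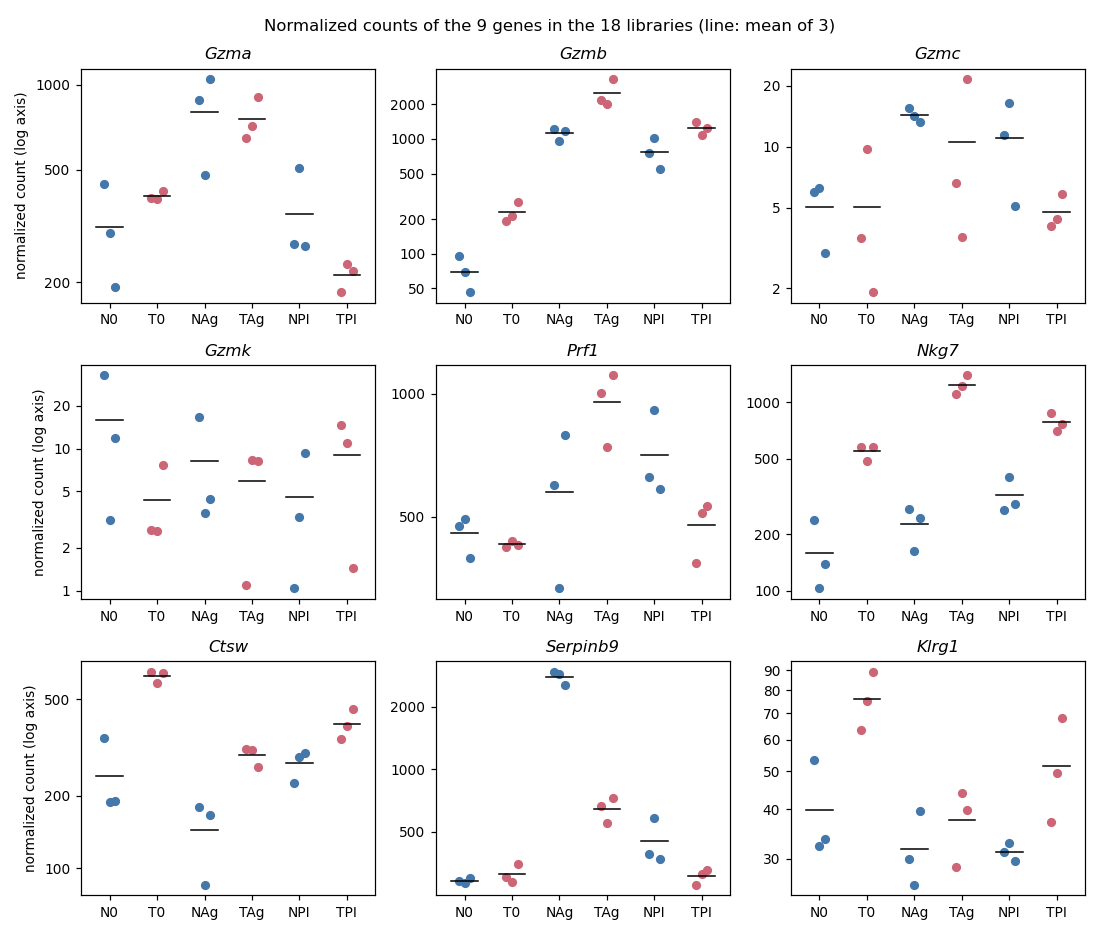
Normalized counts (log axis) of the 9 genes in each of the 18 libraries, with naive groups in blue and tolerized groups in red; the line is the mean of 3 libraries. Gzmb spans 46.6 in the lowest N0 library to 3307 in the highest TAg library, while the Serpinb9 values of NAg, from 2553 to 2953, stand above all other libraries.

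Gzmb, the granzyme that activates caspases in target cells, had the widest range over the groups. In N0 the 3 libraries had 95.1, 68.9 and 46.6 normalized counts, and in T0 they had 192, 215 and 284. Every T0 library lay above every N0 library, and Gzmb was called 3.27-fold higher in T0 (log2 fold change 1.71 ± 0.34, adjusted p = 0.00358). After Ag the values were 1225, 956 and 1178 in NAg and 2182, 2015 and 3307 in TAg, again without overlap. The gene was thus 15.9-fold higher in NAg than in N0 (3.99 ± 0.32, adjusted p = 7.65e-08) and 10.9-fold higher in TAg than in T0 (3.45 ± 0.28, adjusted p = 1.08e-07). TAg exceeded NAg by 2.24-fold (1.16 ± 0.25, adjusted p = 0.00239). After PI the values were 757, 1018 and 551 in NPI and 1398, 1089 and 1248 in TPI, so that both PI groups lay above both groups at rest. The rise with PI was 11.0-fold in naive cells (3.46 ± 0.32, adjusted p = 5.41e-07) and 5.42-fold in tolerized cells (2.44 ± 0.27, adjusted p = 2.91e-06). TPI was called above NPI (0.69 ± 0.25, adjusted p = 0.0468), but this call was lost when any 1 of the libraries other than NPI replicate 2 was left out (log2 fold changes of 0.49 to 0.93 over the 6 fits). In the order TAg, TPI, NAg, NPI, T0, N0 of the group means, TPI did not differ from NAg (adjusted p = 0.605) nor NAg from NPI (0.0822) by the test, and the other neighbours did.

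Gzma, a granzyme with tryptase activity, had levels in naive cells that varied widely between replicates. The libraries had 447, 299.6 and 192 normalized counts in N0 and 399, 396 and 422 in T0, with overlap and no call (0.37 ± 0.34, adjusted p = 0.503). After Ag they had 887, 478 and 1047 in NAg and 648, 717 and 903 in TAg. All 3 libraries of each Ag group lay above those of the same cells at rest, and Gzma was called 2.57-fold higher in NAg (1.36 ± 0.34, adjusted p = 0.00315) and 1.87-fold higher in TAg (0.90 ± 0.33, adjusted p = 0.0327). The call in TAg:T0 held only without TAg replicate 1 among the 6 fits that left out 1 library (0.75 to 0.995), and that in NAg:N0 held in all 6. TAg and NAg overlapped (-0.09 ± 0.33, adjusted p = 0.86). With PI the values were 273, 509 and 269.9 in NPI and 185, 232 and 219 in TPI, where TPI held the lowest mean of the 6 groups. NPI and TPI libraries did not overlap, with NPI the higher, and TPI:NPI was not called (-0.72 ± 0.35, adjusted p = 0.136). Gzma was called lower in TPI than in T0 (-0.94 ± 0.35, adjusted p = 0.0302). The call was lost without T0 replicate 3 or any 1 TPI library (-1.002 to -0.83 over 6 fits). With the mean log2 CPM of the NK markers as covariate, TPI:T0 was -0.11 (adjusted p = 0.561). With those of the erythroid and the myeloid markers it was 1.01 (adjusted p = 0.272), and TPI:NPI was called (-1.90, adjusted p = 0.00953). NPI:N0 had 0.16 ± 0.35, adjusted p = 0.722, and 1.28 (adjusted p = 0.0243) in the last of these fits. Of the neighbours in the order NAg, TAg, T0, NPI, N0, TPI, only TAg and T0 differed by the test.

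Gzmc and Gzmk, a granzyme of the Gzmb cluster and a neighbour of Gzma, were near the limit of detection. Gzmc had 2 to 21 reads per library, with 5.94, 6.26 and 2.97 normalized counts in N0 and 15.6, 14.1 and 13.2 in NAg. The NAg libraries lay above those of N0 and the rise was called (1.48 ± 0.60, adjusted p = 0.034), but leaving out any 1 of the 6 libraries ended the call (1.16 to 1.60). In TAg the 3 libraries had 6.61, 3.58 and 21.5, with 1.06 ± 0.60, adjusted p = 0.136 in TAg:T0. That comparison passed the test without T0 replicate 2 (1.90, adjusted p = 0.0296) or TAg replicate 2 (1.45, adjusted p = 0.0428), and with the NK marker score (1.57, adjusted p = 0.0271) or sex (1.60, adjusted p = 0.0125) as covariate. A marker score is the mean log2 CPM of the markers of a cell type in a library. Gzmk had 1 to 33 reads per library and was called in 0 of the 9 comparisons by edgeR or DESeq2, with no unadjusted p under 0.05 (the smallest was 0.0593, in T0:N0). Without N0 replicate 2, NPI:N0 was called (-2.23, adjusted p = 0.0321). Changes of Gzmk smaller than several-fold were not detectable at this depth, as its standard errors were 0.87 to 1.07 on the log2 scale in the 7 comparisons of group pairs.

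Prf1, which encodes the pore-forming protein that lets granzymes enter, did not differ by the test between naive and tolerized cells at rest. N0 libraries had 475, 494 and 398 normalized counts and T0 libraries 421, 437 and 427 (-0.09 ± 0.27, adjusted p = 0.868). After Ag, NAg libraries had 598, 335 and 794 and TAg libraries 1005, 743 and 1108. TAg lay above T0 in every library and was called 2.22-fold higher (1.15 ± 0.27, adjusted p = 0.002), whereas NAg overlapped N0 (0.34 ± 0.27, adjusted p = 0.294). The difference between both responses was not called (0.81 ± 0.38, adjusted p = 0.162). It was called without NAg replicate 3 (1.11, adjusted p = 0.048) and with the NK marker score (1.39, adjusted p = 0.00128) or the erythroid and myeloid scores (1.45, adjusted p = 0.0207) as covariates. TAg:NAg was called (0.72 ± 0.27, adjusted p = 0.0458), though TAg and NAg libraries overlapped and the call was lost without NAg replicate 1 or 2 or TAg replicate 1 or 3 (0.45 to 1.03 over 6 fits). It held in 2 of 9 other settings. Among the losses were DESeq2 size factors (adjusted p = 0.0603), no filter on low counts (0.0697), sex as covariate (0.0994) and the fit of NAg and TAg alone (0.172). NAg replicate 2 had the lowest Prf1 value of all libraries, and without it the log2 difference was 0.45 (adjusted p = 0.129) and NAg was called above N0 (0.61, adjusted p = 0.0237). After PI, NPI libraries had 625, 912 and 587 and TPI libraries 386, 511 and 532. They did not overlap, with NPI the higher, and the difference was not called (-0.57 ± 0.27, adjusted p = 0.117). NPI:N0 had 0.63 ± 0.27, adjusted p = 0.0573, was called by DESeq2 (0.67, adjusted p = 0.0282) and passed in edgeR without NPI replicate 3 (0.75, adjusted p = 0.0453). No neighbours in the order TAg, NPI, NAg, TPI, N0, T0 differed by the test.

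Nkg7, a membrane protein of cytotoxic granules, separated tolerized from naive cells in every state. The libraries had 237, 103 and 139 normalized counts in N0 and 581, 488 and 580.2 in T0. They had 273, 163 and 243 in NAg and 1102, 1213 and 1384 in TAg. They had 268, 402 and 290.3 in NPI and 879.8, 707 and 767 in TPI. The lowest tolerized library of the whole series, in T0, lay above the highest naive library, in NPI. Nkg7 was called higher by 3.43-fold in T0:N0 (1.78 ± 0.26, adjusted p = 0.000352), by 5.44-fold in TAg:NAg (2.44 ± 0.25, adjusted p = 4.96e-06) and by 2.46-fold in TPI:NPI (1.30 ± 0.24, adjusted p = 0.000713), and each call held without any 1 library. Tolerized cells raised it with Ag (1.17 ± 0.23, adjusted p = 0.000572), and in naive cells the change with Ag was not called (0.50 ± 0.28, adjusted p = 0.127), nor was the difference between the responses (0.67 ± 0.36, adjusted p = 0.231). NAg:N0 was called without N0 replicate 1 (0.85, adjusted p = 0.00622) or NAg replicate 2 (0.69, adjusted p = 0.0481), and by DESeq2 (0.56, adjusted p = 0.0227). With PI the naive cells raised it (0.997 ± 0.27, adjusted p = 0.00496) and TPI:T0 missed the threshold (0.52 ± 0.23, adjusted p = 0.0642). The rise in NPI:N0 was not called with sex as covariate (0.92, adjusted p = 0.0587). TPI:T0 was called by DESeq2 (0.55, adjusted p = 0.0153), with DESeq2 size factors (adjusted p = 0.0489), with the NK marker score (0.96, adjusted p = 0.00277) and in the fit of T0 and TPI alone (adjusted p = 0.000128). In the order TAg, TPI, T0, NPI, NAg, N0 the test separated TAg from TPI and T0 from NPI.

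Ctsw, which encodes cathepsin W, a cysteine protease found mainly in NK and CD8 T cells, was highest in tolerized cells at rest. The libraries had 348, 188 and 190.4 normalized counts in N0 and 651, 586 and 644 in T0, a called rise of 2.59-fold (1.37 ± 0.24, adjusted p = 0.00138). With Ag the levels were lower in both states, with 179.8, 85.8 and 166 in NAg and 310.4, 308 and 262 in TAg. Ctsw fell in TAg:T0 (-1.10 ± 0.24, adjusted p = 0.00116) and in NAg:N0 (-0.75 ± 0.27, adjusted p = 0.0239). The fall in TAg:T0 held without any 1 library, and that in NAg:N0 was lost without N0 replicate 1 (-0.44, adjusted p = 0.105) or NAg replicate 2 (-0.49, adjusted p = 0.0858). TAg still exceeded NAg in every library (1.03 ± 0.27, adjusted p = 0.0072). After PI the values were 226, 288 and 301 in NPI and 344, 389.6 and 457 in TPI, without overlap and without a call (0.55 ± 0.24, adjusted p = 0.0965). DESeq2 called it (0.57, adjusted p = 0.0281), as did edgeR with the NK marker score (0.84, adjusted p = 0.0022) and in the fit of NPI and TPI alone (0.57, adjusted p = 0.00305). TPI was called lower than T0 (-0.66 ± 0.23, adjusted p = 0.0228), a call lost without T0 replicate 1 or TPI replicate 1 or 2 (-0.77 to -0.54 over 6 fits). With the NK marker score TPI:T0 was -0.18 (adjusted p = 0.493), and with the erythroid and myeloid scores 0.64 (adjusted p = 0.422). In the order T0, TPI, TAg, NPI, N0, NAg only the first and the last pair of neighbours differed by the test.

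Serpinb9, the intracellular inhibitor that protects a cell from granzyme B, was the member called lower in tolerized cells after Ag and after PI. At rest the libraries had 288, 283 and 299 normalized counts in N0 and 303, 287 and 350.1 in T0, with overlap (0.11 ± 0.15, adjusted p = 0.658). After Ag they had 2953, 2893 and 2553 in NAg and 663, 552 and 724 in TAg. The NAg values stood far above all other libraries, 9.64-fold higher than N0 (3.27 ± 0.14, adjusted p = 1.62e-13), and TAg was 2.07-fold higher than T0 (1.05 ± 0.14, adjusted p = 2.61e-06). TAg was thus 4.33-fold below NAg (-2.11 ± 0.14, adjusted p = 1.25e-09), and the response to Ag was smaller in tolerized cells by the interaction test (-2.22 ± 0.20, adjusted p = 2.86e-07). These 4 calls held in every fit without 1 library and in all 9 alternative settings. After PI the values were 392, 584 and 372 in NPI and 279, 313 and 327 in TPI. Naive cells showed a called rise (0.62 ± 0.14, adjusted p = 0.000967), TPI:T0 was near 0 (-0.03 ± 0.14, adjusted p = 0.853), and TPI was lower than NPI (-0.55 ± 0.14, adjusted p = 0.00476). The smaller response to PI passed the test (-0.66 ± 0.20, adjusted p = 0.0285) but was lost in 7 of 12 fits without 1 library, with N0 replicates 1, 2 or 3, T0 replicates 1 or 3, NPI replicate 2 or TPI replicate 1 left out (-0.78 to -0.43 over the 12). It was also lost without a filter on low counts (adjusted p = 0.0554), with sex (0.0798), with the NK marker score (-0.47, adjusted p = 0.267), and with the erythroid and myeloid scores (-0.46, adjusted p = 0.271). In the order NAg, TAg, NPI, T0, TPI, N0 the first 3 pairs of neighbours differed by the test and the last 3 groups did not.

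Klrg1, an inhibitory receptor of antigen-experienced T cells and NK cells, was the least abundant of the 7 members that were well detected, with 22 to 94 reads per library. The libraries had 53.5, 32.4 and 33.7 normalized counts in N0 and 63.7, 75.1 and 89.2 in T0, without overlap (0.93 ± 0.25, adjusted p = 0.0094). The rise in T0 lost its call without N0 replicate 2 (0.79, adjusted p = 0.0625) or 3 (0.81, adjusted p = 0.058). In NAg they had 30.0, 25.8 and 39.6 and in TAg 28.6, 44.1 and 40.0, with overlap (0.23 ± 0.28, adjusted p = 0.541), and TAg was lower than T0 (-1.01 ± 0.25, adjusted p = 0.00111) in every such fit. In NPI they had 31.2, 33.0 and 29.7 and in TPI 37.2, 49.4 and 68.2. TPI lay above NPI in each library and was called (0.73 ± 0.26, adjusted p = 0.0281), a call lost without NPI replicate 1 or 3 or TPI replicate 3 (0.46 to 0.95 over 6 fits). T0 was above TPI by the test (-0.55 ± 0.24, adjusted p = 0.0439), a call lost without T0 replicate 2 or 3 or TPI replicate 1 or 2 (-0.82 to -0.33). The call was also lost with DESeq2 (adjusted p = 0.0995), DESeq2 size factors (0.0598), sex (0.0902) and the NK marker score (-0.18, adjusted p = 0.597), and the value was 0.25 with the erythroid and myeloid scores. No other neighbours in the order T0, TPI, N0, TAg, NAg, NPI differed.

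Set side by side for tolerized against naive cells, 4 of the 9 genes were called higher and 0 lower in T0:N0, where 8.42% and 12.0% of all tested genes were called. By edgeR and by DESeq2 no member was lower there, nor at an unadjusted p under 0.05. Those 4 were Gzmb, Nkg7, Ctsw and Klrg1, and the same 4 were without overlap between the groups, against 35.0% of all tested genes. In TAg:NAg 4 were called higher (Gzmb, Prf1, Nkg7 and Ctsw, against 20.9% of all) and 1 lower (Serpinb9, against 18.5%), and 4 were without overlap, against 47.7%. In TPI:NPI 3 were called higher (Gzmb, Nkg7 and Klrg1, against 18.2%), 1 lower (Serpinb9, against 19.7%) and 7 were without overlap, against 50.5%. Of those without overlap, Gzma, Prf1 and Serpinb9 were lower in TPI. The median log2 fold change of the 9 genes was 0.37 in T0:N0, 0.23 in TAg:NAg and 0.55 in TPI:NPI, and that of all tested genes -0.08, 0.01 and -0.04. Gzmb and Nkg7 were called higher in all 3 comparisons. The call of Gzmb in TPI:NPI held in 1 of 6 fits without 1 library and in 3 of 9 other settings. That of Nkg7 in TPI:NPI held in all 6 such fits and in 8 of 9 other settings. It was lost with the erythroid and myeloid scores as covariates (0.61, adjusted p = 0.276). In bulk RNA, a larger share of cells that express a gene and more RNA per cell cannot be told apart.

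**Figure D2:**
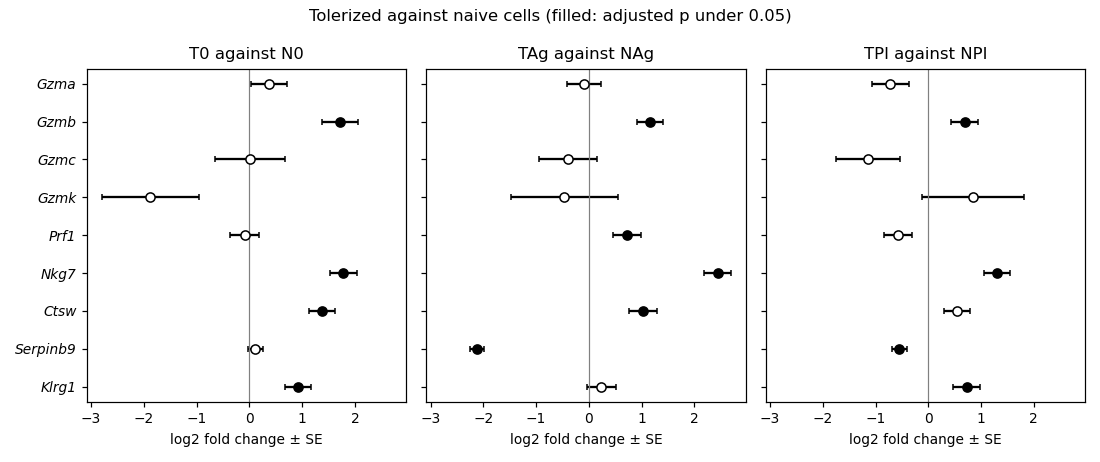
Log2 fold change ± SE of the 9 genes in tolerized against naive cells at rest, after Ag and after PI, from the edgeR fit over 18 libraries; filled points have an adjusted p under 0.05. Nkg7 and Gzmb lie to the right of 0 and filled in each panel, and Serpinb9 moves to -2.11 after Ag.

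Other cells moved with these differences. The neutrophil markers given above differed between N0 and T0, and the 6 erythroid markers summed to 2.14 to 13.2 CPM in N0 and 12.7 to 137.7 CPM in T0, with 0 of the 6 called by edgeR and all 6 higher at an unadjusted p under 0.05. The 8 macrophage markers summed to 31.8 to 44.9 CPM in N0 and 94.8 to 121.3 CPM in T0, with 1 called higher in T0:N0. Their log2 fold changes in T0:N0 were -2.17 to 3.44 (median 0.27), so the sum does not describe each of them. In TAg:NAg, 1 was called higher and 5 lower (median -1.02). The myeloid score is the mean log2 CPM of the neutrophil and macrophage markers together, and so joins markers that did not move alike. Of 5 mast cell and basophil markers, 1 was higher in T0:N0 and 2 in TAg:NAg. Of both CD8 genes, 1 was lower in T0:N0 and in TAg:NAg and 2 in TPI:NPI. With scores of the erythroid and the myeloid markers as covariates, the T0:N0 log2 fold changes were 0.91 for Gzmb (adjusted p = 0.795), 0.73 for Nkg7 (0.801), 0.04 for Ctsw (1) and 0.13 for Klrg1 (0.995), and none was called. In the same fit TAg:NAg kept the calls of Nkg7 (1.86) and Serpinb9, not those of Gzmb (0.69, adjusted p = 0.323) and Ctsw (0.28, adjusted p = 0.683). Prf1 turned to -0.11 there (adjusted p = 0.891). The neutrophil sums did not overlap between tolerized and naive libraries in any state, so tolerance and these cells cannot be told apart by such a fit. With the NK marker score as covariate instead, the calls of Gzmb, Nkg7 and Ctsw in T0:N0 held and that of Klrg1 was lost (0.62, adjusted p = 0.173).

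The NK markers had a range of 71.9 to 134.7 CPM in N0 and 123.6 to 178.6 CPM in T0, and 2 of the 11 were called higher, against 8.42% of all tested genes. At an unadjusted p under 0.05 by edgeR, 6 were higher. All 11 had log2 fold changes above 0 in T0:N0 (0.36 to 1.30, median 0.69). In TPI:NPI all 11 were below 0 (-0.91 to -0.08, median -0.47), and in TAg:NAg they were -0.78 to 0.68 (median -0.02). All 11 were also below 0 in the Ag interaction (-1.17 to -0.47) and the PI interaction (-1.39 to -0.99). By edgeR 0 of the 11 were called in TAg:NAg or TPI:NPI (2 in each at an unadjusted p under 0.05), where the sums were 77.5 to 151 CPM in NAg, 100.3 to 140.1 CPM in TAg, 121.6 to 188.6 CPM in NPI and 94.8 to 118.2 CPM in TPI. In NPI:N0, 4 were called higher and 2 lower (against 28.6% and 32.7% of all tested genes), with log2 fold changes of -1.34 to 2.70. In TPI:T0, 1 was called higher and 5 lower (against 32.0% and 36.3%), at -2.57 to 1.32. The NK marker sum and score thus join markers that moved in opposite directions with PI. NAg replicate 2, which was the lowest of NAg for Gzma, Gzmb, Prf1, Nkg7 and Ctsw, also had the lowest NK marker sum of its group. The order of the libraries within a group was the same for Gzma as for the NK marker score in 3 of 6 groups, for Prf1 and Nkg7 in 2, and for Gzmb in 1. The part of NK cells in the levels of these genes was not tested beyond this covariate.

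**Figure D3:**
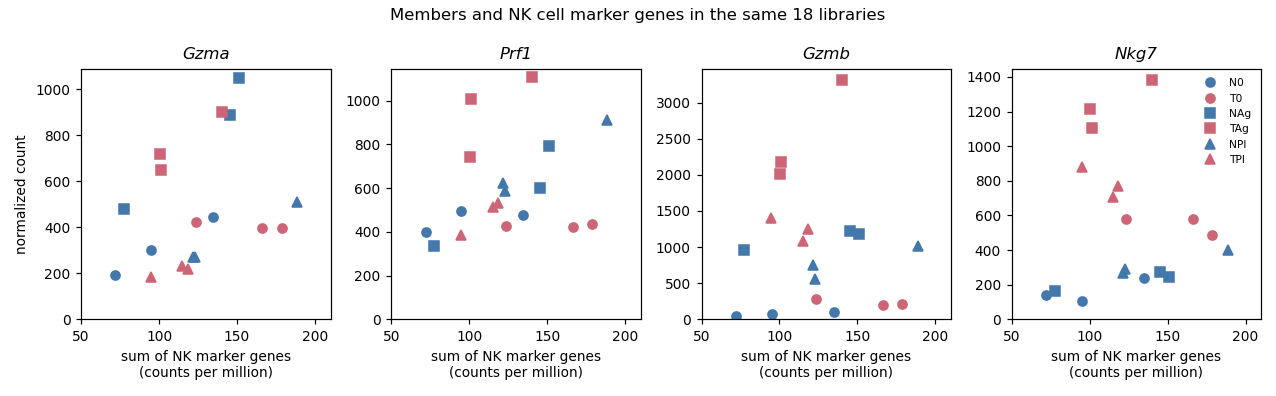
Normalized counts of Gzma, Prf1, Gzmb and Nkg7 in the 18 libraries against the sum of 11 NK cell marker genes in the same library, in CPM; colour gives naive (blue) or tolerized (red), and shape the state. Nkg7 of tolerized libraries lies above that of naive libraries over the shared range of marker sums, and NAg replicate 2, at 77.5 CPM, has the lowest Gzma and Prf1 of NAg.

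In the responses to Ag, 4 of the 9 genes were called higher in NAg:N0 (Gzma, Gzmb, Gzmc and Serpinb9) and 1 lower (Ctsw), where 32.1% and 33.4% of all tested genes were called. In TAg:T0, 5 were called higher (Gzma, Gzmb, Prf1, Nkg7 and Serpinb9, against 29.9% of all) and 2 lower (Ctsw and Klrg1, against 29.8%). Replicates did not overlap for 5 of the 9 in NAg:N0, against 68.1% of all tested genes, and for 7 in TAg:T0, against 64.5%. TAg:T0 and TAg:NAg share the TAg libraries, and NAg:N0 shares N0 with T0:N0. The response differed between tolerized and naive cells by the interaction test for 1 gene, Serpinb9, which was lower in tolerized cells (against 7.09% of all tested genes lower and 14.6% higher). Gzmb rose in both states, and the difference of its responses was not called (-0.55 ± 0.43, adjusted p = 0.426).

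In the responses to PI, 3 genes were called higher in NPI:N0 (Gzmb, Nkg7 and Serpinb9, against 28.6% of all) and 0 lower, against 32.7%, with 0 lower also by DESeq2 and at an unadjusted p under 0.05. In TPI:T0, 1 was called higher (Gzmb, against 32.0%) and 3 lower (Gzma, Ctsw and Klrg1, against 36.3%). Replicates did not overlap for 4 of the 9 genes in both NPI:N0 and TPI:T0, against 66.4% and 72.5% of all tested genes. The PI interaction was called for Serpinb9 alone, as lower, against 7.52% of all genes lower and 12.7% higher. The interaction of Gzmb was -1.02 ± 0.43, adjusted p = 0.121 and that of Ctsw -0.82 ± 0.34, adjusted p = 0.115, and DESeq2 called both (adjusted p = 0.0453 and 0.0344). Without N0 replicate 1, edgeR called that of Ctsw (-1.16, adjusted p = 0.00792).

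**Figure D4:**
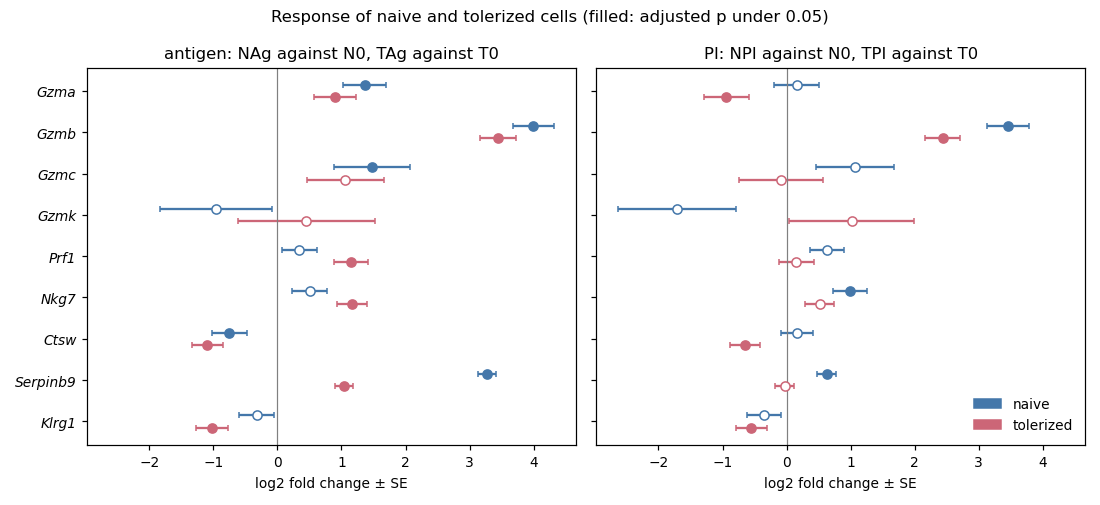
Log2 fold change ± SE of the 9 genes after Ag (left) and after PI (right) against the same cells at rest, for naive (blue) and tolerized (red) cells; filled points have an adjusted p under 0.05. Gzmb has the largest rises among the granule genes with both stimuli, and the naive and tolerized points of Serpinb9 lie far apart after Ag, at 3.27 and 1.05.

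Levels of different genes were compared per kilobase of exon, as CPM after TMM scaling divided by exon length in kilobases. In N0, Gzma was the most abundant at 24.4 ± 9.96 (SD, n = 3), followed by Prf1 at 16.2 ± 1.82, while Gzmb was at 3.62 ± 1.25. In T0, Nkg7 led at 45.8 ± 4.48 and Ctsw followed at 37.2 ± 2.13, with Gzmb at 11.9 ± 2.47. In NAg the levels of Gzma (62.7 ± 22.9), Serpinb9 (58.7 ± 4.53) and Gzmb (57.8 ± 7.41) lay within their spread of each other. Gzmb reached the highest mean level per length of any member in TAg, at 129.1 ± 36.3, with Nkg7 at 102.8 ± 11.9 and Serpinb9 at 13.5 ± 1.83. The TAg libraries of Gzmb and Nkg7 overlapped. In NPI, Gzmb had the highest mean at 40.0 ± 12.1, with a spread that met that of Gzma (27.3 ± 10.7). In TPI, Nkg7 (65.4 ± 7.32) and Gzmb (64.3 ± 7.97) were alike within their spread. Gzmc and Gzmk stayed at or below 1.12 in all 6 groups.

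**Figure D5:**
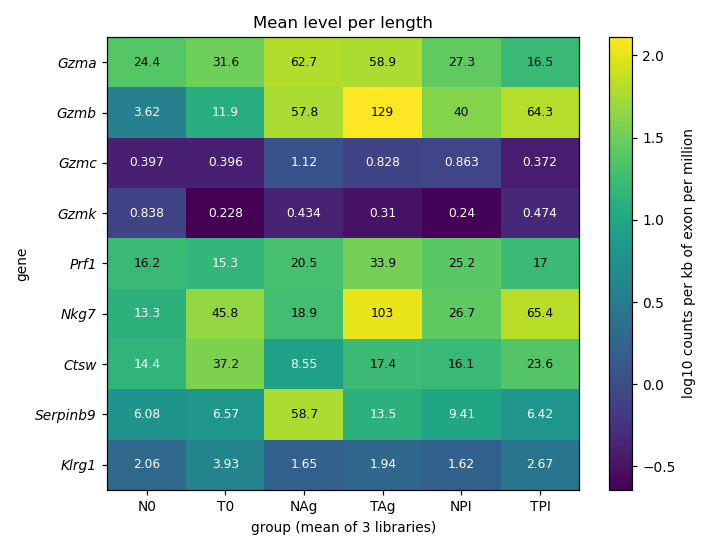
Mean level of each gene in each group, in CPM per kilobase of exon (printed in the cell, colour on a log10 scale), over 3 libraries per group. The highest cells are Gzmb and Nkg7 in TAg, and the lowest rows are Gzmc and Gzmk.

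Over the 18 libraries, which share groups and so are not independent points, the members did not follow 1 common pattern. On the log2 scale Ctsw and Klrg1 went together most (Pearson r = 0.821), then Gzma and Serpinb9 (0.711) and Gzmb and Nkg7 (0.662), while Ctsw and Serpinb9 ran opposite (-0.687). Among tested genes with a mean normalized count of at least 20, the pattern most like Gzmb was that of Tbx21 (r = 0.974), which encodes T-bet, followed by Il1rn (0.971) and Epcam (0.963). Prf1 was most like Eomes (0.848), which encodes the other T-box factor of cytotoxic cells, and Nkg7 most like Setbp1 (0.973), Farp1 (0.956) and Cldnd2 (0.945). Serpinb9 was most like Maml2 (0.972) and Mbp (0.970), Ctsw most like Plekhg3 (0.950), Klrg1 most like Racgap1 (0.869) and Gzma most like Mrpl2 (0.905). By Spearman correlation, Il1rn (0.99) and Zfp827 (0.977) ranked above Tbx21 (0.965) for Gzmb, and the named matches of Ctsw, Serpinb9 and Klrg1 were not among the 3 nearest genes. The low-count genes had weaker matches, with Rcor2 for Gzmc (0.790) and Rb1 for Gzmk (0.623).

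Of 8 regulators of cytotoxic genes, 4 were called higher in T0:N0, against 8.42% of all tested genes. For these and the other companion genes only the edgeR fit of 6 group means was examined, without marker scores, sex or left-out libraries. Tbx21 had 114 ± 46.0 normalized counts in N0 and 393.9 ± 98.3 in T0 (log2 fold change 1.78 ± 0.26, adjusted p = 0.000331), and Prdm1, which encodes the repressor Blimp-1, had 1.06 ± 0.22, adjusted p = 0.00387. Zeb2 and Runx3 rose as well (0.97 ± 0.23, adjusted p = 0.00924 and 0.38 ± 0.08, adjusted p = 0.000976). In TAg:NAg, 5 were called higher (against 20.9% of all) and 1 lower (against 18.5%), led by Crtam, a surface molecule of CD4 T cells with cytotoxic features, at 203.7 ± 46.8 in NAg and 1452 ± 228 in TAg (2.84 ± 0.18, adjusted p = 3.28e-09). Eomes was among the 5 (1.30 ± 0.35, adjusted p = 0.00903). In TPI:NPI, 4 were called higher (against 18.2% of all), including Tbx21 (1.92 ± 0.21, adjusted p = 6.24e-06). With Ag, Tbx21 rose in naive cells to 3944 ± 137 (5.11 ± 0.26, adjusted p = 2.45e-10) and in tolerized cells to 5437 ± 469 (3.79 ± 0.23, adjusted p = 2.65e-09). Its interaction was lower in tolerized cells (-1.32 ± 0.32, adjusted p = 0.0104). Over the 8 regulators the Ag interaction was called higher for 2 and lower for 2 (-1.32 to 2.21), against 14.6% and 7.09% of all tested genes. In each of NAg:N0, TAg:T0, NPI:N0 and TPI:T0, 6 of the 8 were called higher, against 32.1%, 29.9%, 28.6% and 32.0% of all tested genes.

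Of 13 genes for the making and release of granules, 4 were called higher and 1 lower in T0:N0 (against 8.42% and 12.0% of all tested genes), 8 higher and 4 lower in TAg:NAg (20.9% and 18.5%), and 6 higher and 3 lower in TPI:NPI (18.2% and 19.7%). Cst7, which encodes cystatin F, an inhibitor of granule cathepsins, was higher in tolerized cells in all 3 (1.64 ± 0.18, adjusted p = 3.54e-06, 1.57 ± 0.17, adjusted p = 6.82e-07 and 1.53 ± 0.18, adjusted p = 9.26e-07). Srgn, which encodes the proteoglycan that packs granzymes, rose from 824 ± 95.8 in N0 to 16723 ± 649 in NAg (4.34 ± 0.11, adjusted p = 1.42e-20). It rose from 1298 ± 105 in T0 to 9483 ± 892 in TAg (2.87 ± 0.10, adjusted p = 1.11e-17), with a smaller response in tolerized cells (-1.47 ± 0.13, adjusted p = 2.94e-08). Over the 13 genes the Ag interaction was called higher for 3 and lower for 4 (-1.47 to 1.10), against 14.6% and 7.09% of all tested genes. In NAg:N0, 7 were called higher and 5 lower (against 32.1% and 33.4% of all), in TAg:T0 6 and 6 (29.9% and 29.8%), in NPI:N0 5 and 3 (28.6% and 32.7%), and in TPI:T0 7 and 3 (32.0% and 36.3%).

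Of 4 further serpins that inhibit granzymes or cathepsins, 2 were called lower in TAg:NAg (against 18.5% of all tested genes), as was Serpinb9. Serpinb6b had 1084 ± 72.8 normalized counts in NAg and 231 ± 36.9 in TAg (-2.23 ± 0.18, adjusted p = 4.49e-08), and its interaction with Ag was called lower (-2.94 ± 0.26, adjusted p = 6.12e-07). Serpinb9b, which is a close relative of Serpinb9, had 137.5 ± 34.3 and 46.6 ± 15.2 (-1.55 ± 0.31, adjusted p = 0.000634), and its interaction was not called (-1.45 ± 0.52, adjusted p = 0.0539). At rest Serpinb6b was higher in T0 than in N0 (0.72 ± 0.20, adjusted p = 0.0167). Serpina3g was higher in T0:N0 (1.61 ± 0.39, adjusted p = 0.012) and TPI:NPI (1.25 ± 0.35, adjusted p = 0.0138). With Ag, 3 of the 4 rose and 1 fell in NAg:N0 (against 32.1% and 33.4% of all), and 2 rose and 1 fell in TAg:T0 (29.9% and 29.8%).

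Of the 6 other mouse granzymes, Gzme, Gzmf, Gzmg and Gzmn had no read in any library and Gzmd had 1 read in 1 library. These genes of the Gzmb cluster were thus not detectable at this depth. For 1 library taken alone, a count of 0 still leaves room for an expected count of up to about 3. Gzmm, which encodes a granzyme typical of NK cells and lies elsewhere in the genome, had 16 to 71 reads. Gzmm was higher in NAg than in N0 (0.84 ± 0.23, adjusted p = 0.00229), lower in TAg than in NAg (-0.70 ± 0.23, adjusted p = 0.0164) and lower in NPI than in N0 (-0.85 ± 0.25, adjusted p = 0.00526).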

How the data were processed

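The authors aligned the reads to mm9 with TopHat2 2.1.1, counted them per Ensembl gene with HTSeq 0.9.1 and deposited raw counts per library. Strand and overlap modes are not given in the sources used here. Symbols for 37205 of 37991 identifiers came from an annotation of the same build. Genes were kept for testing if any group averaged 3 or more normalized counts.

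Counts were scaled by TMM and fitted with edgeR 4.0.16 (R 4.3.3) as 6 group means over 18 libraries. Contrasts were tested with the robust quasi-likelihood F test, and called at a Benjamini-Hochberg adjusted p under 0.05 over all 17240 tested genes. Values after ± are standard errors of log2 fold changes or, for levels, SDs. DESeq2 1.42.0, other scaling and filters, marker scores, sex, replicate numbers and left-out libraries were alternatives. With 3 replicates per group, counting error limits Gzmc, Gzmk and Klrg1 most, and the replicates give the spread of the others.

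Members and companion lists were chosen with earlier results of these data known. All members were tested in every comparison, but not every result of a member is printed. Of each companion list, up to 4 called genes with the largest changes could be named.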

Additional observations from a re-analysis of the deposited data

Results flagged for a closer look

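The response of Serpinb9 was smaller in tolerized than in naive cells by a test of the difference itself, with Ag in every alternative tried and with PI in only part of them. With Ag the log2 response of tolerized cells was lower by 2.22 than that of naive cells (interaction -2.22, adjusted p = 2.86e-07, edgeR). NAg libraries had 2800 ± 216 normalized counts and TAg libraries 646 ± 87.3 (SD, n = 3). With PI the interaction was -0.66 (adjusted p = 0.0285), and it passed the threshold in 5 of 12 fits that left out 1 library and in 4 of 9 other settings. It was lost without a filter on low counts (adjusted p = 0.0554), with sex (0.0798), with the NK marker score (0.267), with the erythroid and myeloid scores (0.271), and under the fold limit of 2. Groups of 3 libraries are too small for a test of single outlying libraries.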

How the results depend on the processing

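Of the member counts, the numbers called with 1 library left out (higher, then lower) ranged from 3 to 4 and 0 to 0 in T0:N0, 3 to 4 and 1 to 1 in TAg:NAg, 1 to 3 and 1 to 1 in TPI:NPI, 3 to 5 and 0 to 1 in NAg:N0, 4 to 5 and 2 to 2 in TAg:T0, 3 to 4 and 0 to 1 in NPI:N0, and 1 to 1 and 0 to 2 in TPI:T0. For the Ag interaction they ranged from 0 to 1 and 1 to 1, and for the PI interaction from 0 to 0 and 0 to 1. With erythroid and myeloid scores as covariates the counts higher were 0 in T0:N0, 1 in TAg:NAg, 0 in TPI:NPI, 2 in NAg:N0, 6 in NPI:N0 and 1 for the Ag interaction, and the counts lower were 3 in TPI:NPI, 0 in TPI:T0 and 0 for the PI interaction. With the NK score, TPI:T0 had 3 higher and 0 lower, the Ag interaction 2 higher and the PI interaction 0 lower. Fold and count limits of 2 and 50 left 1 higher and 0 lower in TPI:NPI, 0 lower in NAg:N0, 1 higher in NPI:N0, 0 lower in TPI:T0 and 0 lower for the PI interaction. With sex as covariate, 2 were lower in TAg:NAg and 0 for the PI interaction. Fits of only the groups compared had 0 lower in TPI:NPI and NAg:N0 and 2 higher in TPI:T0. TPI:T0 also had 2 higher with DESeq2 size factors and with DESeq2, the PI interaction had 3 lower with DESeq2, and it had 0 lower without a filter on low counts. The causes were not tested.

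Log2 fold changes of opposite sign came mostly from the covariates. With the erythroid and myeloid scores they were, in T0:N0, -1.63 (Gzma), -0.52 (Gzmc) and -0.38 (Serpinb9), in TAg:NAg -0.11 (Prf1) and -0.24 (Klrg1), in TPI:NPI -1.03 (Gzmk) and -0.24 (Ctsw), in NAg:N0 -0.30 (Prf1), in NPI:N0 0.21 (Gzmk) and 0.087 (Klrg1), in TPI:T0 1.01 (Gzma), 0.13 (Gzmc), 0.64 (Ctsw), 0.43 (Serpinb9) and 0.25 (Klrg1), for the Ag interaction 0.38 (Gzma) and 0.24 (Ctsw), and for the PI interaction 0.10 (Prf1) and 0.16 (Klrg1). With the NK score they were -0.27 (Gzma) and -0.78 (Gzmc) in T0:N0, -0.23 (Gzma) and -0.026 (Ctsw) in NPI:N0, 0.88 (Gzmc) and 0.086 (Serpinb9) in TPI:T0, 0.26 (Gzma), 0.35 (Gzmc) and 0.094 (Ctsw) for the Ag interaction, and 0.11 (Gzma), 0.24 (Gzmc), 0.40 (Prf1), 0.16 (Nkg7) and 0.33 (Klrg1) for the PI interaction. With sex they were -1.53 (Gzmc) in T0:N0, -0.016 (Gzma) and -0.88 (Gzmc) in NPI:N0, and 0.13 and 0.39 for Gzmc in the Ag and PI interactions. Serpinb9 in TPI:T0 was 0.0057 with DESeq2 size factors and 0.0055 with DESeq2. With 1 library left out the sign also turned in some fits for Gzmc in T0:N0 (-0.85 to 0.38), TPI:T0 (-0.48 to 0.75) and the Ag interaction (-1.47 to 0.47), Gzma in TAg:NAg (-0.35 to 0.15) and NPI:N0 (-0.21 to 0.46), Gzmk in TAg:NAg (-0.82 to 0.56) and NAg:N0 (-1.98 to 0.053), Ctsw in NPI:N0 (-0.0315 to 0.48), Serpinb9 in TPI:T0 (-0.12 to 0.056) and Klrg1 in the PI interaction (-0.47 to 0.020).

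Replicate numbers did not pair the libraries: the deviations of same-numbered libraries had mean correlations of -0.0231, 0.00121 and -0.0243, and 1, 2 and 0 libraries correlated best with their own number. The replicate block ended the calls of Prf1 in TAg:NAg (0.73, adjusted p = 0.0644), Gzma in TAg:T0 (0.90, adjusted p = 0.0546) and Gzmb in TPI:NPI (0.68, adjusted p = 0.0781), and put Gzmc in T0:N0 at -0.0047. It changed no other call.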

Other observations

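Cytotoxic lymphocytes also kill through ligands of death receptors, and 3 such genes were measured as a companion list. Fasl, the ligand of Fas, had 164 ± 28.3 normalized counts in N0 and 844 ± 142 in NAg, against 129.6 ± 7.31 in T0 and 234 ± 24.9 in TAg (SD, n = 3). It was lower in TAg than in NAg (log2 fold change -1.85 ± 0.13, adjusted p = 3.66e-10), and its response to Ag was smaller in tolerized cells (interaction -1.51 ± 0.19, adjusted p = 6.82e-06). With PI the order turned, with 682 ± 90.3 in NPI and 1085 ± 84.7 in TPI (0.67 ± 0.12, adjusted p = 9.54e-05).

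Tnfsf10, which encodes TRAIL, had 283 ± 63.8 in NAg and 624 ± 55.5 in TAg and was higher in TAg (1.14 ± 0.13, adjusted p = 2.26e-07). Lta, which encodes lymphotoxin alpha, rose with Ag to 1340 ± 115 in NAg and 1323 ± 364 in TAg, and TAg:NAg was not called for Lta (-0.02 ± 0.17, adjusted p = 0.956). Over the 3 ligands the Ag interaction was called higher for 1 and lower for 1, against 14.6% and 7.09% of all tested genes.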
